A study of Mus musculus with 6 samples.

Results

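The 34 genes described here encode chemokines, interleukins and other cytokines, subunits and regulators of the transcription factor NF-kB, and effector genes that inflammatory signals are known to induce. They were chosen by gene symbol. All 34 were found among the 25006 gene identifiers of the count tables. By role they comprised 13 chemokines, 11 interleukins and other cytokines, 2 receptor chains, 5 NF-kB subunits and regulators, and 3 effector genes.

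Total RNA was sequenced from mouse ovarian surface epithelial (MOSE) cells, the cell layer that covers the ovary. MOSE-PAX8 (3 libraries) overexpresses PAX8, a paired-domain transcription factor of the Mullerian duct, kidney and thyroid, and MOSE-NEO (3 libraries) is the line it was set against. Both are stable lines kept in G418 at 0.05 mg/mL, so the selection drug was shared by the groups. The labels name 1 line per group and do not say whether a line is 1 clone, which promoter drives PAX8, or whether libraries came from separate cultures. The p-values therefore speak only of how far these libraries scatter, possibly for technical reasons, and a difference between the lines that is unrelated to PAX8 cannot be told apart from one that is.

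Library totals lay between 23623762 and 36367825 counts. Pax8 itself had 2570, 2973 and 3544 counts in the MOSE-PAX8 libraries, against 0, 1 and 1 in the MOSE-NEO libraries. Each of 13 markers of ovarian surface epithelium and mesothelium was tested. Of these, 8 were called lower and 1 higher, against 16.1% lower and 17.9% higher over all genes tested. Krt8, 1 of the 8, passed the filter only through MOSE-NEO. The summed level of the 13 was 8680 to 10156 CPM (counts scaled to the TMM-adjusted library total) in MOSE-PAX8 and 15097 to 16761 CPM in MOSE-NEO. Of 18 leukocyte markers, 4 reached the test, with a summed level of 9.84 to 10.8 CPM in MOSE-PAX8 and 9.56 to 17.7 CPM in MOSE-NEO. Adgre1, Laptm5, Ms4a1, S100a9 and Tyrobp had 0 counts in every library. Ptprc, which encodes the leukocyte antigen CD45, was called higher in MOSE-PAX8 and passed the filter only through it, at 1.95 ± 0.632 CPM against 0.0111 ± 0.0192 CPM in MOSE-NEO (SD, n = 3 each). Csf1r, a macrophage receptor, was called lower, and the other 2 tested leukocyte markers were not called. Of 9 stromal fibroblast markers, 5 were tested and 3 called lower, with a summed level of 16327 to 17894 CPM in MOSE-PAX8 and 30628 to 36153 CPM in MOSE-NEO. Endothelial markers summed to 1.39 to 1.54 CPM in MOSE-PAX8 and 1.94 to 2.09 CPM in MOSE-NEO, with Cdh5 and Cldn5 at 0, and none of the 2 tested was called. Granulosa and theca markers summed to 555 to 629 CPM in MOSE-PAX8 and 604 to 724 CPM in MOSE-NEO. Of the 4 tested, Foxl2 was called higher, passing the filter only through MOSE-PAX8, and Inha and Star were called lower. The part of these marker differences in the results below was not tested.

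Chemokines are small secreted proteins that bind G protein-coupled receptors and direct the movement of leukocytes and of other cells along their gradients. Interleukins and related cytokines act through paired receptor chains, and the chain gp130 (Il6st) is shared by receptors for IL-6, LIF and their relatives. NF-kB is a family of dimeric transcription factors. In the canonical branch, IkB-alpha holds dimers with RELA in the cytoplasm until an inflammatory signal destroys it, while in the alternative branch the kinase NIK drives the processing of the NFKB2 precursor, which then pairs with RELB. Many chemokine and cytokine promoters carry binding sites for these dimers.

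Promoter sequences are shown for 6 genes, to describe which of them hold an NF-kB-type sequence. A link between such a sequence and the calls was not tested. They are the 250 bases before an annotated start in RefSeq on GRCm38.p6, read 5′ to 3′ on the gene's strand. Capitals mark each match to a kB motif, searched as GGGAA followed by any 3 bases and CC, on either strand (so also GG, any 3 bases and TTCCC), with overlapping matches merged. Nfkb2 (chr19:46304487-46304736, plus strand) has 1 of 3 annotated windows with matches and was called higher. Nfkbia (chr12:55492648-55492897, minus strand) has matches and was not called. Cxcl1 (chr5:90890995-90891244, plus strand) and Il6 (chr5:30012864-30013113, plus strand) have matches and few counts. Cxcl12 (chr6:117168285-117168534, plus strand) and Birc3 (chr9:7873171-7873420, minus strand), which had the largest fold changes upward, hold no match in the window shown.
Nfkb2: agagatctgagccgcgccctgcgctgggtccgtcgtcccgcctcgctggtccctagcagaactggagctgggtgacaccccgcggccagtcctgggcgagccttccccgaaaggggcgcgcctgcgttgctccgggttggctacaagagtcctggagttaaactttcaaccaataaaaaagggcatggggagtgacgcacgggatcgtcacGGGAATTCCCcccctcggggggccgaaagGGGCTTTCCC
Nfkbia: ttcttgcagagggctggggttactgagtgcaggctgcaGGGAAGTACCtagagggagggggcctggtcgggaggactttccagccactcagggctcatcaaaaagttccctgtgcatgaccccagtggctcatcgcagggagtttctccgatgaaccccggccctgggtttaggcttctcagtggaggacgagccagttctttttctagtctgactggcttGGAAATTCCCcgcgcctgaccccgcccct
Cxcl1: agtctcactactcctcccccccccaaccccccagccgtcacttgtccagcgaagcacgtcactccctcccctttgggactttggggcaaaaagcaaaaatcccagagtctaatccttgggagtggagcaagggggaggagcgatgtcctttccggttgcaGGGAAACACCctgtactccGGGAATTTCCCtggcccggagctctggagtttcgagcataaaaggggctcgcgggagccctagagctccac
Il6: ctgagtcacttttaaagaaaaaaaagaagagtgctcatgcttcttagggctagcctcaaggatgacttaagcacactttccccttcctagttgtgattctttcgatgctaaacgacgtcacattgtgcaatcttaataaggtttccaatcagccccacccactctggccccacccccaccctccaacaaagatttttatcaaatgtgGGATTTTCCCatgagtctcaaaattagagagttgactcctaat
Cxcl12: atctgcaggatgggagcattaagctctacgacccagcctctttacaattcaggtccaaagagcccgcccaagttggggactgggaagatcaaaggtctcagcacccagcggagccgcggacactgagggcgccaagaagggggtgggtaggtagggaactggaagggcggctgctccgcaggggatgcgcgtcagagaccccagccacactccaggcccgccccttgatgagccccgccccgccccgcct
Birc3: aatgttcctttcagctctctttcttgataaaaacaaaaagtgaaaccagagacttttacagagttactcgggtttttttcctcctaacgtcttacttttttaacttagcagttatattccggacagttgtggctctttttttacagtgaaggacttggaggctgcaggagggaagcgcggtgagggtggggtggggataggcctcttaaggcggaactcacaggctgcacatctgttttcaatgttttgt

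RefSeq promoter windows were matched for 26 of the 34 genes, in 32 windows. The kB motif occurred in 7 of the 32 windows, those of Il6, Cxcl1, Cxcl2, Ccl20, Nfkbia, Nfkb2 and Tnfaip3, and in 4.94% of the 32851 mouse promoter windows of the same length. Many genes of this group are known NF-kB targets, so that share describes how they were chosen. Of those 7 genes, Nfkb2 was called higher, Nfkbia and Tnfaip3 were tested and not called, Il6, Cxcl1 and Ccl20 had too few counts for the test, and Cxcl2 had 0 counts in every library. The core letters of a PAX-type motif, GTCACGC on either strand, occurred in 0 of the 32 windows and in 1.78% of all windows. A match is a description of the letters and not a measured binding site, and no match says only that these letters are not in that window.

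A gene was tested where its counts passed the edgeR filter on low values, and was called at an adjusted p below 0.05. Of the 34 genes, 21 passed that filter, 9 others had some counts but too few, and Cxcl2, Ccl5, Tnf and Csf2 had 0 counts in all 6 libraries. Of the 21, 6 were called higher in MOSE-PAX8 (Cxcl12, Cx3cl1, Il33, Il6st, Birc3 and Nfkb2), 6 were called lower (Ccl2, Cxcl14, Il18, Lif, Il34 and Saa3) and 9 were not called. Over the 12313 genes tested, 33.9% were called, 17.9% higher and 16.1% lower. That is 1979 genes lower, which was 1314 without MOSE-PAX8 3. At least 2-fold calls were made for 7 of the 21, against 9.22% of the genes tested. The median log2 fold change was 0.16 for the 21 genes and 0.01 for the genes tested, and the median absolute log2 fold change was 0.77 and 0.24. Cxcl14 passed the filter only through MOSE-NEO, and Birc3 and Cxcl16 only through MOSE-PAX8. The filter thus set the direction of these, although Cxcl16 was not called, and the counts above are a description. The groups did not overlap for 14 of the 21 genes, 8 with MOSE-PAX8 above and 6 with it below, against 47.6% of the genes tested.

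**Figure D1:**
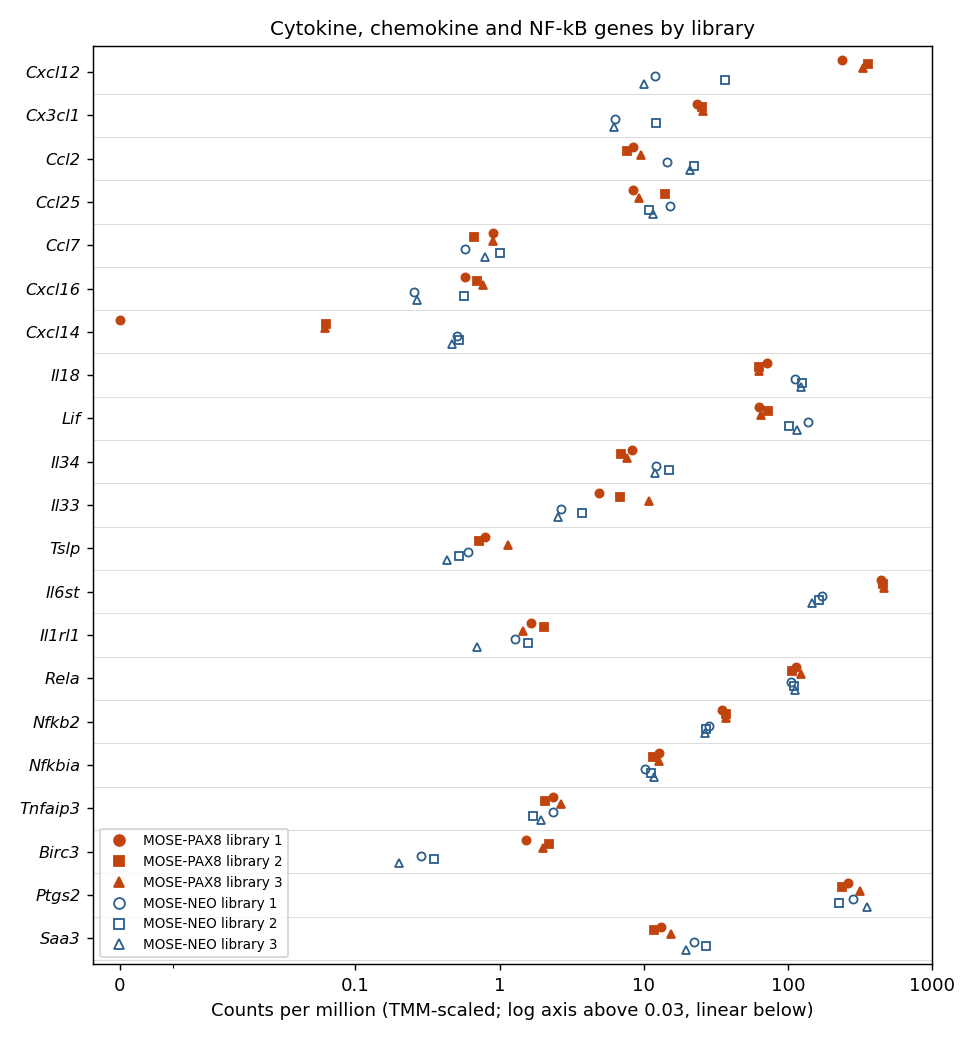
CPM of the 21 tested genes in each library, on a log axis that is linear below 0.03 CPM, with filled symbols for MOSE-PAX8 and open symbols for MOSE-NEO and 1 symbol shape per replicate number. Cxcl12 lies at 236 CPM or above in the MOSE-PAX8 libraries and at 36.6 CPM or below in the MOSE-NEO libraries, while Ptgs2, Rela and Ccl7 overlap.

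**Figure D2:**
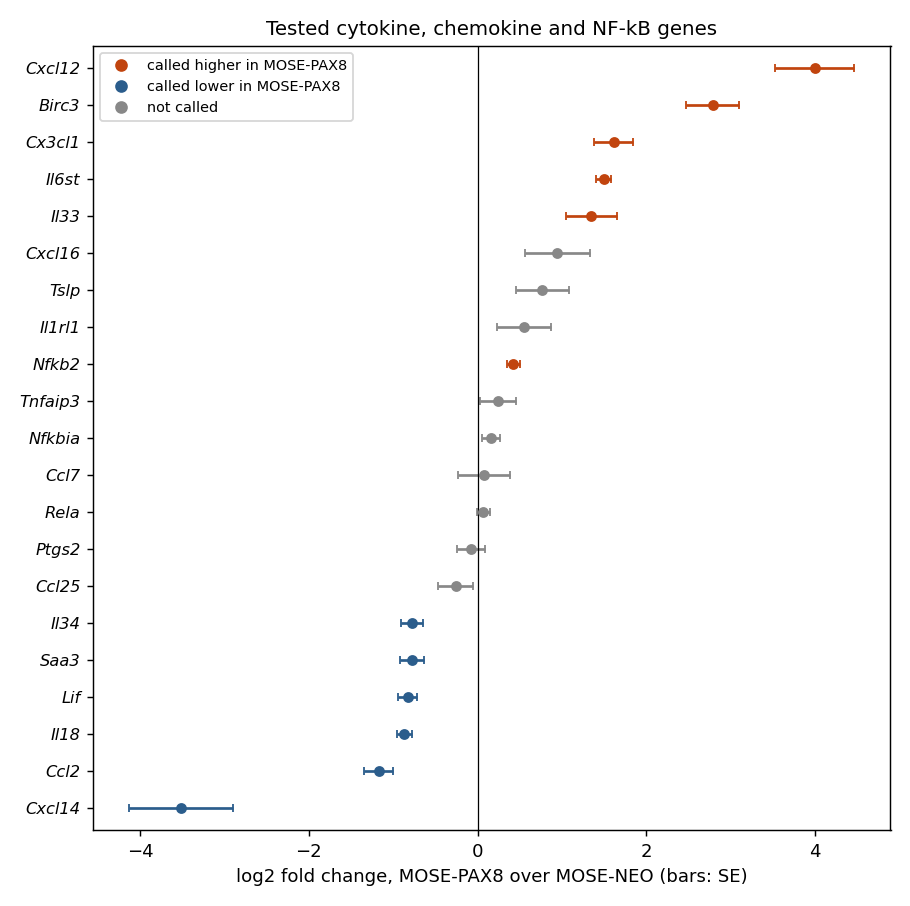
Log2 fold change of MOSE-PAX8 over MOSE-NEO for the 21 tested genes, with bars of 1 SE and colours for the edgeR call. The values run from -3.51 for Cxcl14 to 3.99 for Cxcl12, and 9 genes drawn in grey were not called.

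Per length, the 2 lines differed in which of the 13 chemokine transcripts led. Cxcl12, which encodes the ligand of the receptor CXCR4 and is known for retaining and homing progenitor cells, was the most abundant of the 13 chemokine transcripts per length in MOSE-PAX8. Ccl2, which encodes the monocyte attractant MCP-1, was the most abundant per length in MOSE-NEO, although without scaling for length Cxcl12 averaged 19.5 CPM and Ccl2 19.2 CPM there. In bulk RNA, a change in the share of cells that express a gene and a change in RNA per cell cannot be told apart.

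Cxcl12 (mm10 chromosome 6, 117168535 to 117181367) had 236, 355 and 329 CPM in the MOSE-PAX8 libraries, against 11.9, 36.6 and 9.96 CPM in the MOSE-NEO libraries. Every MOSE-PAX8 library was far above every MOSE-NEO library, and MOSE-NEO 2 stood above the other MOSE-NEO libraries. The log2 fold change was 3.99 ± 0.47 (SE, adjusted p = 0.000353), a 15.9-fold difference, and it was 4.80 without MOSE-NEO 2. RPKM here is CPM divided by the kilobases of all annotated exons of a gene, merged over its transcripts. Such a length can exceed that of the transcript expressed. Per length, Cxcl12 reached 37.5 ± 7.64 RPKM in MOSE-PAX8 and 2.39 ± 1.82 RPKM in MOSE-NEO (SD, n = 3 each). It was the fourth of the 34 genes in MOSE-PAX8 by that measure.

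Ccl2 (mm10 chromosome 11, 82035571 to 82037453) had 8.40, 7.57 and 9.49 CPM in MOSE-PAX8, against 14.4, 22.3 and 20.9 CPM in MOSE-NEO. The groups did not overlap. Ccl2 fell by 1.17 ± 0.17 on the log2 scale (SE, adjusted p = 0.00116), and was 2.25-fold lower in MOSE-PAX8. Ccl7, the neighbouring monocyte chemokine gene, starts 8.26 kb beyond the end of Ccl2 and had 0.902, 0.660 and 0.894 CPM in MOSE-PAX8 against 0.572, 1.00 and 0.797 CPM in MOSE-NEO. Those values overlapped, with a log2 fold change of 0.07 ± 0.31 (SE, adjusted p = 0.883). Per length, the Ccl2 level was 7.37 ± 0.771 times that of Ccl7 in MOSE-PAX8 and 17.3 ± 1.45 times in MOSE-NEO (SD, n = 3 each).

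Cx3cl1 encodes fractalkine, a membrane-tethered chemokine that can be shed. It had 23.4, 25.4 and 25.6 CPM in MOSE-PAX8, against 6.32, 12.1 and 6.18 CPM in MOSE-NEO. All MOSE-PAX8 libraries were above all MOSE-NEO libraries, and MOSE-NEO 2 was again the high one of its line. The log2 fold change was 1.61 ± 0.23 (SE, adjusted p = 0.00104), a 3.06-fold difference.

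Cxcl14, an epithelial chemokine, was near the limit of counting in MOSE-PAX8. It had 0, 2 and 2 counts in the MOSE-PAX8 libraries, against 16, 12 and 14 counts in the MOSE-NEO libraries. The ratio of scaled counts was 0.0799 with an exact 95% counting interval of 0.0208 to 0.220, and edgeR gave a log2 fold change of -3.51 ± 0.61 (SE, adjusted p = 0.00267), which was -2.92 without MOSE-PAX8 1. Cxcl16, a transmembrane chemokine that also binds oxidised lipoprotein, had 21, 22 and 25 counts in MOSE-PAX8 against 8, 13 and 8 counts in MOSE-NEO. The groups did not overlap in CPM, but the log2 fold change of 0.94 ± 0.39 missed the threshold (SE, adjusted p = 0.0947). Without MOSE-NEO 2 it was called (adjusted p = 0.0407). Cxcl16 overlaps Zmynd15 on the opposite strand, which had 23 counts over the MOSE-PAX8 libraries and 11 over the MOSE-NEO libraries. Ccl25, the thymic and gut chemokine, had 8.37, 14.0 and 9.22 CPM in MOSE-PAX8 against 15.2, 10.9 and 11.6 CPM in MOSE-NEO, and the groups overlapped. Its log2 fold change was -0.26 ± 0.21 (SE, adjusted p = 0.379), and it was called lower without MOSE-PAX8 2 (adjusted p = 0.045). Ccl25 overlaps Elavl1 on the opposite strand, which averaged 168 CPM in MOSE-PAX8 and 153 CPM in MOSE-NEO, and the strand setting of the counting is not given in the sources used here.

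Summed per length over the 13 chemokine genes, the level was 45.0, 59.9 and 58.3 RPKM in the MOSE-PAX8 libraries, against 19, 30.5 and 24.2 RPKM in the MOSE-NEO libraries. Cxcl12 made up 68.6 ± 4.16% of that sum in MOSE-PAX8 and 9.15 ± 5.0% in MOSE-NEO, and Ccl2 made up 13.9 ± 2.66% and 68.8 ± 6.14% (SD, n = 3 each). Cx3cl1 held 11.7 ± 1.31% of the sum in MOSE-PAX8 and 8.35 ± 1.81% in MOSE-NEO. These shares depend on the exonic lengths, 8176 bases for Cxcl12 and 1138 for Ccl2. Without scaling for length, Cxcl12 and Ccl2 averaged 19.5 and 19.2 CPM in MOSE-NEO, and 307 and 8.49 CPM in MOSE-PAX8. The sums also leave out chemokines outside the 13. Ccl17 is 1 of those, at 7.29 ± 2.05 RPKM in MOSE-PAX8 and 0.0488 ± 0.0438 RPKM in MOSE-NEO (SD, n = 3 each). The level of Cxcl12 per length was 3.92, 6.52 and 4.83 times that of Ccl2 in the MOSE-PAX8 libraries, against 0.116, 0.229 and 0.0663 times in the MOSE-NEO libraries. The ratios of the lines did not overlap. Over 6 such ratios chosen after their values were seen, each exact two-sided permutation p was 0.1 and stayed at 0.1 after Benjamini-Hochberg adjustment, which is the smallest that 3 libraries against 3 allow.

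**Figure D3:**
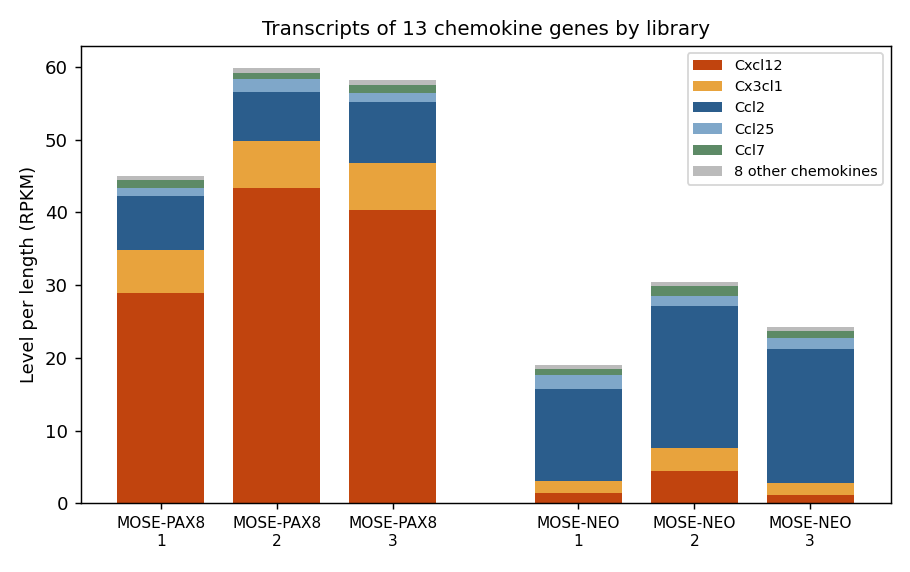
Stacked RPKM of the 13 chemokine genes in each library, the MOSE-PAX8 libraries on the left and the MOSE-NEO libraries on the right, with 5 genes coloured and the 8 others in grey. The sum is 45.0 to 59.9 RPKM in MOSE-PAX8, mostly Cxcl12, and 19 to 30.5 RPKM in MOSE-NEO, mostly Ccl2. Without scaling for length, Cxcl12 and Ccl2 averaged 19.5 and 19.2 CPM in MOSE-NEO.

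Among the receptors for these chemokines, Ackr3, the scavenger receptor of CXCL12, had 328, 319 and 498 counts in MOSE-PAX8 and 0, 0 and 1 in MOSE-NEO, a ratio of 961 with an exact 95% counting interval of 172 to 37979. Cxcr4, the signalling receptor of CXCL12, had 1, 3 and 2 counts in MOSE-PAX8 and 3, 1 and 2 in MOSE-NEO, too few for the test. Ccr2, the receptor of CCL2, had 0 counts in MOSE-PAX8 and 2 over the MOSE-NEO libraries, and Cx3cr1, the receptor of fractalkine, had 0 and 1. The signalling receptors of CXCL12 and fractalkine thus had next to no counts in either line.

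Of the interleukins and other cytokines, 3 fell and 1 rose in MOSE-PAX8. Il18 is made as a precursor that caspase-1 cleaves, and was the most abundant of the 34 transcripts per length in both lines, at 63.6 ± 5.12 RPKM in MOSE-PAX8 and 116 ± 7.01 RPKM in MOSE-NEO (SD, n = 3 each). Without scaling for length, Il6st, Cxcl12, Ptgs2, Rela and Lif averaged above it in MOSE-PAX8, and Ptgs2 and Il6st in MOSE-NEO. Il18 had 71.7, 62.5 and 62.6 CPM in MOSE-PAX8, against 111, 124 and 124 CPM in MOSE-NEO. The groups were well apart, and Il18 fell by 0.87 ± 0.09 on the log2 scale (SE, adjusted p = 0.00014). Casp1 had 0 counts in every library.

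Lif, a cytokine of the IL-6 family known for its role in implantation and in stem cell renewal, had 62.8, 72.4 and 64.5 CPM in MOSE-PAX8, against 137, 102 and 116 CPM in MOSE-NEO. Every MOSE-PAX8 library was below every MOSE-NEO library. Lif fell by 0.83 ± 0.11 on the log2 scale (SE, adjusted p = 0.000842), and was 1.78-fold lower in MOSE-PAX8. Il34, a ligand of the macrophage receptor CSF1R, had 8.29, 6.91 and 7.64 CPM in MOSE-PAX8, against 12.2, 15.0 and 12.0 CPM in MOSE-NEO. It fell by 0.77 ± 0.13 on the log2 scale (SE, adjusted p = 0.00232) with no overlap between the lines.

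Il33, a nuclear alarmin released from damaged epithelial and endothelial cells, had 4.87, 6.79 and 10.9 CPM in MOSE-PAX8, against 2.67, 3.70 and 2.52 CPM in MOSE-NEO. The lines did not overlap, and the MOSE-PAX8 libraries were themselves spread, with MOSE-PAX8 3 the highest. The log2 fold change was 1.35 ± 0.30 (SE, adjusted p = 0.00898), a 2.55-fold difference. With MOSE-PAX8 2 and MOSE-NEO 1 left out, the libraries with the largest share of lincRNA counts (0.33% and 0.317%, against 0.146% to 0.195% in the others), the log2 fold change was 1.34, nearly as with all libraries, while the adjusted p was 0.054 with 4 libraries. Tslp, an epithelial alarmin, had 0.793, 0.723 and 1.14 CPM in MOSE-PAX8 and 0.604, 0.522 and 0.432 CPM in MOSE-NEO. Its groups did not overlap, and its log2 fold change of 0.76 ± 0.31 was not called (SE, adjusted p = 0.0955).

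Of the receptor chains, Il6st was called and Il1rl1 was not. Il6st (mm10 chromosome 13, 112464070 to 112510086) encodes gp130, and had 439, 458 and 460 CPM in MOSE-PAX8, against 171, 164 and 147 CPM in MOSE-NEO. The libraries of each line were close together and the lines far apart. The log2 fold change was 1.49 ± 0.09 (SE, adjusted p = 8.24e-06), a 2.81-fold difference. Lifr, the partner chain of gp130 in the LIF receptor, had 84.5 ± 21.7 CPM in MOSE-PAX8 and 66.9 ± 23.9 CPM in MOSE-NEO (SD, n = 3 each) and was not called (log2 fold change 0.34, adjusted p = 0.362). Per length, Il6st was 5.40 ± 1.19 times Lifr in MOSE-PAX8 and 2.52 ± 0.777 times in MOSE-NEO (SD, n = 3 each). The ligand Lif and the chain Il6st therefore moved in opposite directions.

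Il1rl1 encodes ST2, the receptor of IL-33. It had 1.64, 2.04 and 1.45 CPM in MOSE-PAX8 and 1.27, 1.57 and 0.697 CPM in MOSE-NEO. These values overlapped, and the log2 fold change was 0.55 ± 0.32 (SE, adjusted p = 0.225). Its accessory chain Il1rap was not called (log2 fold change 0.09, adjusted p = 0.580). Csf1r, a receptor of IL-34, had 4.2 ± 0.913 CPM in MOSE-PAX8 and 10.6 ± 3.19 CPM in MOSE-NEO (SD, n = 3 each), a fall of 1.33 on the log2 scale (adjusted p = 0.00373), in the same direction as its ligand Il34. Of the receptor chains for IL-18, Il18rap was not called (log2 fold change 0.37, adjusted p = 0.275), and Il18r1 had 19 counts over the MOSE-PAX8 libraries and 6 over the MOSE-NEO libraries.

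Of the 5 NF-kB subunits and regulators, Birc3 and Nfkb2 rose, and Rela, Nfkbia and Tnfaip3 were not called. Birc3 encodes the ubiquitin ligase cIAP2, which acts below TNF receptors and in the turnover of NIK. It had 56, 70 and 65 counts in MOSE-PAX8, against 9, 8 and 6 counts in MOSE-NEO. The lines were far apart at a low level, 0.382 ± 0.0686 RPKM in MOSE-PAX8 and 0.0554 ± 0.0149 RPKM in MOSE-NEO (SD, n = 3 each). The log2 fold change was 2.78 ± 0.32 (SE, adjusted p = 0.000289), a 6.89-fold difference.

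Nfkb2, the precursor of p52, had 34.9, 37.3 and 37.1 CPM in MOSE-PAX8, against 28.4, 26.7 and 26.5 CPM in MOSE-NEO. The difference was small and the lines did not overlap, with a log2 fold change of 0.42 ± 0.08 (SE, adjusted p = 0.0031). With the median change of its chromosome removed, which was 0.17 on chromosome 19, it was 0.25 (adjusted p = 0.0356). Nfkb2 overlaps Psd on the opposite strand, at 11.9 CPM in MOSE-PAX8 and 14.1 CPM in MOSE-NEO. Reads in the stretch that both genes share cannot be told apart without a stated strand.

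Rela, the p65 subunit, had 113, 107 and 122 CPM in MOSE-PAX8 and 104, 110 and 112 CPM in MOSE-NEO, which overlapped (log2 fold change 0.07 ± 0.08 SE, adjusted p = 0.559). Nfkbia, which encodes IkB-alpha and is itself induced by NF-kB, had 12.7, 11.5 and 12.7 CPM in MOSE-PAX8 and 10.2, 11.1 and 11.7 CPM in MOSE-NEO. Its groups overlapped (log2 fold change 0.16 ± 0.10 SE, adjusted p = 0.277). Tnfaip3, the feedback deubiquitinase A20, had 2.35, 2.07 and 2.65 CPM in MOSE-PAX8 and 2.35, 1.70 and 1.93 CPM in MOSE-NEO, with overlap as well (log2 fold change 0.24 ± 0.22 SE, adjusted p = 0.443).

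A list of NF-kB subunits, inhibitors and upstream signalling genes placed these beside the rest of the pathway. Without the members, 23 of the list were tested, 5 of them called higher and 0 lower by edgeR, with a median log2 fold change of 0.03. The share called higher was close to the 17.9% of all genes tested. At an adjusted p below 0.05, DESeq2 called 5 higher and 1 lower, and limma-voom 5 and 0. At an unadjusted p below 0.05, edgeR and limma-voom each had 8 higher and 1 lower, and DESeq2 had 6 and 1. Map3k14, which encodes NIK, the kinase of the alternative branch, had 25.9, 29.0 and 29.8 CPM in MOSE-PAX8 against 8.36, 7.35 and 7.24 CPM in MOSE-NEO (log2 fold change 1.88 ± 0.10 SE, adjusted p = 6.01e-06). Relb, the partner of p52, had 8.04, 7.89 and 7.37 CPM in MOSE-PAX8 against 3.27, 3.91 and 2.79 CPM in MOSE-NEO (1.23 ± 0.16 SE, adjusted p = 0.000653). Neither pair of groups overlapped.

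Nfkb1, the precursor of p50, had 57.6 ± 1.53 CPM in MOSE-PAX8 and 41.4 ± 2.57 CPM in MOSE-NEO (SD, n = 3 each, adjusted p = 0.00165). Nfkbiz, a nuclear IkB protein, had 28.0 ± 3.86 CPM in MOSE-PAX8 and 17.3 ± 3.40 CPM in MOSE-NEO (SD, n = 3 each, adjusted p = 0.00992). Nfkbib, which encodes IkB-beta, was called by a narrow margin (log2 fold change 0.40, adjusted p = 0.0446). The subunits of the IkB kinase were not called, with log2 fold changes of 0.08 for Chuk, -0.02 for Ikbkb and -0.03 for Ikbkg, nor were Traf2 (0.07) and Traf3 (0.17), adaptors that hold NIK down, or Rel (0.03). Birc2, the paralogue of Birc3 that encodes cIAP1, had a log2 fold change of -0.29 (adjusted p = 0.065). Per length, Relb was 0.0542 ± 0.00566 of Rela in MOSE-PAX8 and 0.0242 ± 0.00435 in MOSE-NEO (SD, n = 3 each), so Rela transcripts remained far above Relb transcripts in both lines.

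**Figure D4:**
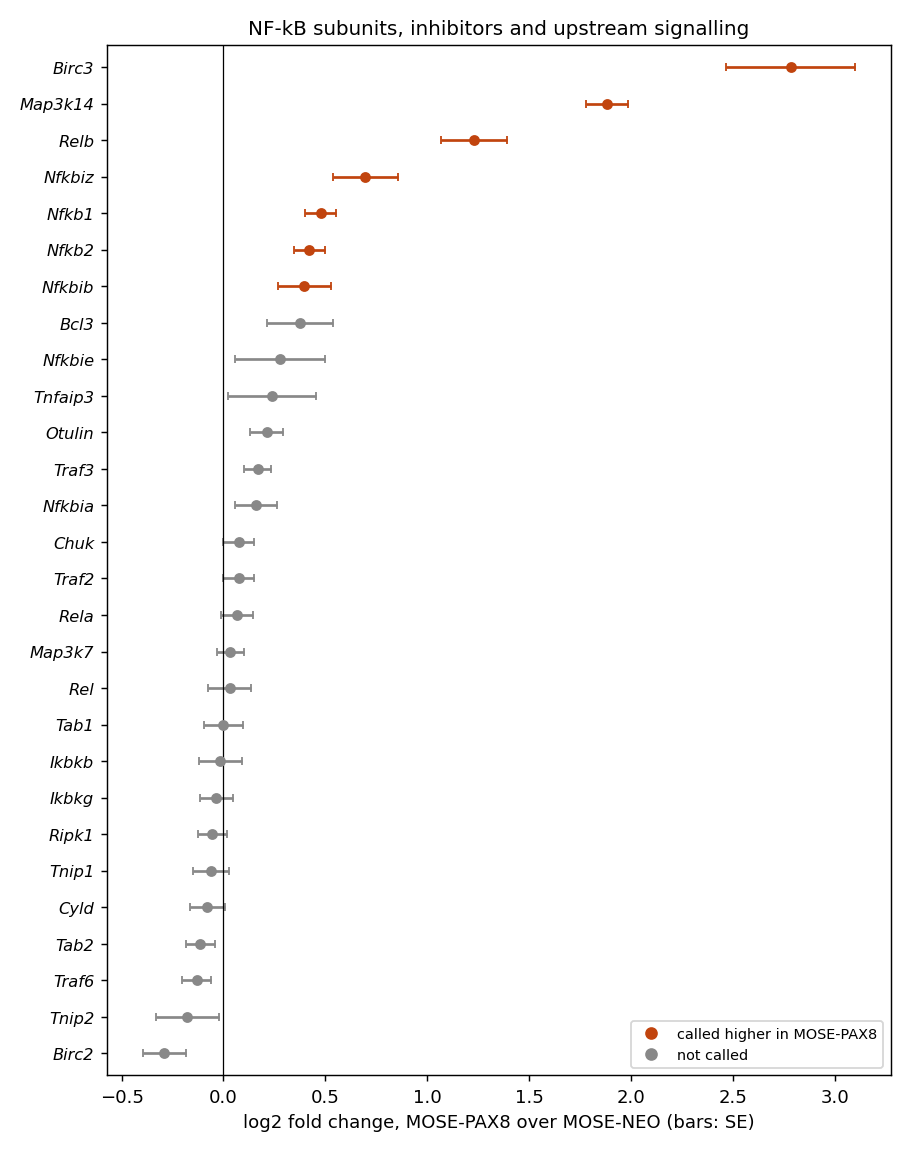
Log2 fold change of MOSE-PAX8 over MOSE-NEO for 28 tested genes of NF-kB signalling, with bars of 1 SE and red points for those called higher by edgeR. From 2.78 for Birc3 and 1.88 for Map3k14 the values pass to 21 grey genes that were not called, among them Rela, Nfkbia and the IkB kinase genes.

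Of the effector genes, Saa3 fell, Ptgs2 was not called and Lcn2 had too few counts. Saa3, an acute phase serum amyloid A made outside the liver, had 13, 11.7 and 15.3 CPM in MOSE-PAX8, against 22.4, 26.8 and 19.6 CPM in MOSE-NEO. The groups did not overlap, and Saa3 fell by 0.77 ± 0.14 on the log2 scale (SE, adjusted p = 0.00339). Of its family, Saa1 had 1 count over the MOSE-PAX8 libraries and 0 over the MOSE-NEO libraries, and Saa2 had 0 and 1. How reads with several alignments were counted is not given in the sources used here. Ptgs2, the inducible cyclooxygenase COX-2, had 261, 237 and 313 CPM in MOSE-PAX8 and 281, 223 and 352 CPM in MOSE-NEO. It was abundant in both lines, with overlap and a log2 fold change of -0.08 ± 0.17 (SE, adjusted p = 0.760). Ptgs1, the constitutive cyclooxygenase COX-1, had 169 ± 40.7 CPM in MOSE-PAX8 and 367 ± 105 CPM in MOSE-NEO (SD, n = 3 each, adjusted p = 0.00632). Ptges, a prostaglandin E synthase, had 0.403 ± 0.117 CPM in MOSE-PAX8 and 1.67 ± 0.170 CPM in MOSE-NEO (SD, n = 3 each). Ptger3, a prostaglandin E receptor, had 74 counts over the MOSE-PAX8 libraries and 0 over the MOSE-NEO libraries, at least 20.7-fold higher against a floor of 3 counts over the group. Over that list of 12 tested genes, 3 were called higher and 3 lower, with a median log2 fold change of -0.01. The shares over all genes tested were 17.9% higher and 16.1% lower. The 3 higher ones of the list passed the filter only through MOSE-PAX8 and Ptges only through MOSE-NEO, so the filter set the direction of these.

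Several cytokines known from acute inflammation were not detected, or had 1 to 4 counts in all, in both lines. Tnf, Csf2 (GM-CSF), Ccl5 and Cxcl2 had 0 counts in all libraries, which allows 3 counts per library or 0.0825 to 0.127 CPM. Il1b had 1 count in MOSE-PAX8 3 and 0 elsewhere, and Cxcl5 had 1 count in MOSE-NEO 1 and 0 elsewhere. Ccl9 had 0, 3 and 1 counts in MOSE-PAX8 and 0 in MOSE-NEO. These values set no direction.

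Among the 9 genes with some counts but no test, Cxcl1 and Lcn2 had the clearest separation. Cxcl1, a neutrophil attractant, had 10, 17 and 12 counts in MOSE-PAX8 against 2, 3 and 1 counts in MOSE-NEO, a ratio of 5.45 with an exact 95% counting interval of 2.29 to 15.8. Lcn2, the iron-siderophore carrier lipocalin 2, had 12, 7 and 17 counts in MOSE-PAX8 against 1, 1 and 0 counts in MOSE-NEO, a ratio of 15.1 with an interval of 3.89 to 129. Both were called when the filter on low values was dropped (adjusted p = 0.0122 for Cxcl1 and 0.00374 for Lcn2).

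Csf3, which encodes G-CSF, had 6, 11 and 14 counts in MOSE-PAX8 against 2, 1 and 4 counts in MOSE-NEO, a ratio of 3.72 with an interval of 1.61 to 9.998. Il6 had 0, 1 and 0 counts in MOSE-PAX8 against 4, 4 and 2 counts in MOSE-NEO, a ratio of 0.0839 with an interval of 0.00193 to 0.59. Without the filter, neither was called (adjusted p = 0.0526 for Csf3 and 0.0587 for Il6). Ccl20, the ligand of CCR6, had 10, 4 and 13 counts in MOSE-PAX8 and 5, 3 and 7 in MOSE-NEO, and Il1a had 4, 7 and 5 in MOSE-PAX8 and 14, 7 and 3 in MOSE-NEO. The counts of Ccl20 and of Il1a overlapped between the lines. Intervals and floors cover counting error only.

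**Figure D5:**
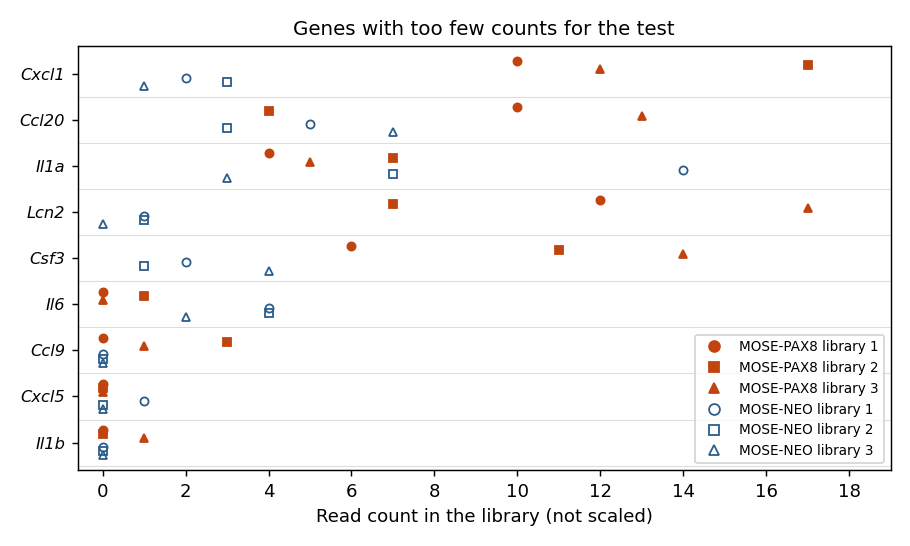
Unscaled read counts of the 9 genes with some counts but too few for the test, by library, with filled symbols for MOSE-PAX8 and open symbols for MOSE-NEO. Cxcl1 has 10 to 17 counts in MOSE-PAX8 against 1 to 3 in MOSE-NEO, and Lcn2 has 7 to 17 against 0 to 1, while Ccl20 and Il1a overlap.

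The 8 lists of other genes of these pathways held 243 gene identifiers outside the members, of which 145 were tested, 32 called higher and 26 lower, with a median log2 fold change of -0.02, against 17.9% higher and 16.1% lower over all genes tested. Among 21 tested other cytokines and chemokines, 7 were higher and 2 lower, with a median of 0.32. Of the 7, 5 passed the filter only through MOSE-PAX8, Il1rn and Ccl17 among them, and had to come out higher. Il1rn, which encodes an antagonist of the IL-1 receptor, had 18, 52 and 66 counts in MOSE-PAX8 and 0 in each MOSE-NEO library. That was 38.0-fold higher against a floor of 3 counts over the group, with an exact 95% counting interval from 30.5 upward. Ccl17, a chemokine of CCR4, had 104, 111 and 159 counts in MOSE-PAX8 and 1, 1 and 0 in MOSE-NEO, a ratio of 157 with an exact 95% counting interval of 43.1 to 1300. Spp1, which encodes osteopontin, had 9.24, 9.33 and 19.1 CPM in MOSE-PAX8 and 0.667, 0.609 and 0.631 CPM in MOSE-NEO (adjusted p = 5.68e-05). The groups were far apart for each of these.

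Of 16 tested NF-kB target genes outside the members, 5 were higher and 1 lower, against 17.9% higher and 16.1% lower over all genes tested. The median log2 fold change of the 16 was -0.02. Tnfaip2 had 118 ± 9.35 CPM in MOSE-PAX8 and 56.7 ± 6.72 CPM in MOSE-NEO (adjusted p = 0.000139). F3, the tissue factor that starts coagulation, had 48.5 ± 9.23 CPM in MOSE-PAX8 and 23.5 ± 3.72 CPM in MOSE-NEO (adjusted p = 0.00128). Icam1, a leukocyte adhesion receptor, had 11.9 ± 0.737 CPM in MOSE-PAX8 and 7.49 ± 0.670 CPM in MOSE-NEO (adjusted p = 0.00279, SD and n = 3 each for these genes). Nuak2 had the largest change of the list (log2 fold change 2.92, and 3.54 without MOSE-NEO 2).

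Jak1, Stat6 and Myd88 were among the signalling genes called lower in MOSE-PAX8. Over all genes tested, 16.1% were lower and 17.9% higher. Of 21 tested genes of the JAK-STAT list, 7 were lower and 1 higher, with a median log2 fold change of -0.14. The higher one passed the filter only through MOSE-PAX8. Jak1, the kinase shared by gp130 and interferon receptors, had 153 ± 11 CPM in MOSE-PAX8 and 225 ± 9.74 CPM in MOSE-NEO (SD, n = 3 each, adjusted p = 0.0011). Stat3, the main transducer of gp130, fell short of a call (log2 fold change -0.26, adjusted p = 0.0915), and Socs3, its feedback target, had a log2 fold change of -0.02 (adjusted p = 0.971). Of 16 tested genes of IL-1 and Toll-like receptor signalling, 7 were lower and 2 higher, with a median of -0.30. Irak3, which restrains this pathway and passed the filter only through MOSE-NEO, had 1, 0 and 0 counts in MOSE-PAX8 and 48, 59 and 59 in MOSE-NEO, a MOSE-NEO over MOSE-PAX8 ratio of 198 with an exact 95% counting interval of 35.0 to 7861. Myd88, the shared adaptor, had 22.9 ± 1.24 CPM in MOSE-PAX8 and 37.6 ± 5.15 CPM in MOSE-NEO, and Irak2 had 52.2 ± 4.14 CPM in MOSE-PAX8 and 26.0 ± 0.727 CPM in MOSE-NEO (SD, n = 3 each).

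Of 31 tested receptors outside the members, 8 were higher and 5 lower, against 17.9% higher and 16.1% lower over all genes tested. The median log2 fold change of the 31 was 0.05, and 2 of the 8 passed the filter only through MOSE-PAX8, Ackr3 among them. Tnfrsf1b, which encodes TNF receptor 2, had 44.7 ± 1.09 CPM in MOSE-PAX8 and 24.5 ± 1.51 CPM in MOSE-NEO (adjusted p = 9.14e-05). Ackr4, a scavenger receptor for CCL19, CCL21 and CCL25, had 34.9 ± 3.03 CPM in MOSE-PAX8 and 98.3 ± 13.6 CPM in MOSE-NEO (SD, n = 3 each, adjusted p = 3.81e-05). Of 5 tested acute phase genes, Cp, which encodes the copper oxidase ceruloplasmin, was higher at 380 ± 56.7 CPM in MOSE-PAX8 against 35.5 ± 5.18 CPM in MOSE-NEO, and Slc22a17, a lipocalin receptor, was lower at 7.87 ± 2.55 CPM in MOSE-PAX8 against 19.8 ± 3.37 CPM in MOSE-NEO (SD, n = 3 each). Slc22a17 lies on chromosome 14, and its fall of 1.34 on the log2 scale was 0.90 with the chromosome's median removed.

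Within a line, the libraries were not equal for these genes. MOSE-NEO 2 was the highest of its line for 12 of the 21 tested genes and MOSE-NEO 3 the lowest for 11, while MOSE-PAX8 3 was the highest of its line for 10 and the lowest for 1. The part of this spread in the differences was not tested beyond leaving each library out in turn, where no called gene of the group changed direction.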

How the data were processed

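Total RNA of 6 libraries was measured, and the deposited values are raw counts of reads per gene, 1 table per library, for 25006 Ensembl identifiers. Cutadapt 1.13, STAR, HTSeq 0.6.1p1, DESeq2 and the mm10 build are named per the submitters' processing notes. The strand setting, annotation and rule for multi-mapping reads were not given in the sources used here, so paralogues and overlapping genes are uncertain. Symbols, coordinates and exonic lengths, merged over all annotated transcripts of a gene, came from GENCODE M21, which held 24991 of the identifiers.

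The counts of both lines were fitted together with edgeR 4.0.16 (quasi-likelihood test, filterByExpr, TMM factors, Benjamini-Hochberg adjustment over the 12313 genes tested) in R 4.3.3, and the scripts were tested on simulated data. CPM values use the TMM factors, and RPKM divides them by exonic length. A positive log2 fold change means a higher level in MOSE-PAX8. SE values were worked back from the test statistic. Counts of 0 were given a floor of 3 counts.

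The members and lists were chosen with earlier results of these data known. Every member is named. Of each list, up to 4 called genes in each direction with the largest changes could be named, with the receptors of called ligands, and the other genes were named after their values were seen. 1 listed gene was not analysed here, and some others are not reported here. Alternatives were DESeq2 1.42.0, limma 3.58.1 (voom), other scalings and filters, a replicate block, left-out libraries, a test against a fold of 1.5 and removal of chromosome medians. Library pairs within a line differed by more than sampling noise.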

Additional observations from a re-analysis of the deposited data

How the results depend on the processing

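Of the 12 called members, 11 kept their call in each alternative that tested them, of the 15 other than the test against a fold of 1.5, no member called in any of them changed direction, and Il33 lost its call with both lincRNA-rich libraries left out, at a log2 fold change of 1.34 against 1.35. Cxcl14 could not be tested where 1 CPM in 3 libraries was required. The test against a fold of 1.5 called 700 genes higher and 370 lower over all genes, 4 members higher and 3 lower (Cxcl12, Cx3cl1, Birc3, Il6st, Ccl2, Cxcl14 and Il18), and 16 genes of the other lists higher and 8 lower. Leaving out each library in turn gave 1545 to 2065 genes higher and 1314 to 1843 lower, against 2199 and 1979 with all libraries, the lowest count of lower genes coming without MOSE-PAX8 3. The members gave 6 to 9 higher and 6 to 7 lower, with up to 24 of them tested, and the other lists 24 to 31 higher and 21 to 26 lower. With the replicate block, 2070 genes were higher and 1863 lower, 6 members each way, and 32 and 26 genes of the lists. The deviations of same-numbered libraries correlated at -0.465, 0.0542 and 0.402, with no common sign. Over all pairs across the lines, the correlations ran from -0.645 (MOSE-PAX8 2 with MOSE-NEO 3) to 0.627 (MOSE-PAX8 2 with MOSE-NEO 1). With 3 libraries per line, these values cannot settle whether the numbers pair the libraries. Of 42 called list genes that the naming rule allowed, 30 kept their call in each of those alternatives that tested them. Depth limits the 13 untested members, where 3 counts are worth 0.0825 to 0.127 CPM.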
